A study of Mus musculus with 8 samples.

Results

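The Hox genes of the Hoxa, Hoxb, Hoxc and Hoxd clusters were examined in stem cells from mouse white fat, mesenchymal progenitors that can become adipocytes. Members were chosen by a symbol made of Hox, a cluster letter and a number. The 34 members reported here are among 17967 symbols in the table, and 27 of them were among the 13694 genes with enough counts to be tested. Other genes of the clusters are not analysed here. Cells were sorted by flow cytometry from collagenase-digested fat for bulk RNA sequencing. The mice were males of the wild-type strain C57BL/6J, fed chow. Depots analysed were inguinal subcutaneous (SWAT), epididymal (EWAT) and perirenal (NWAT) white fat, each with 2 libraries. Strain, sex and diet were the same in all 6 libraries, the animals' age is not given in the sources used here, and the mesenteric depot is not analysed here. No source says that the replicates came from separate animals or pools, so the tests measure the spread between these libraries, which may be technical.

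Hox genes code for transcription factors with a homeodomain, a DNA-binding domain of helices of which the third lies in the major groove and reads the bases. They lie in clusters in which the order along the chromosome follows the order of expression along the head-to-tail axis of the embryo, so that low-numbered genes act in anterior and high-numbered genes in posterior regions, and members of different clusters with the same number are paralogues. Adult fibroblasts and fat progenitors are known to keep much of the positional Hox pattern of the region they came from. Below, paralogue groups 1 to 4 are called anterior, groups 5 to 8 central and groups 9 to 13 posterior.

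The homeobox, the part of the coding sequence that codes for the homeodomain, was located by translation in all 34 members as a stretch of 60 codons, or 180 bases. It is shown for Hoxa5, Hoxc10 and Hoxa10, the first lower and the others higher in SWAT than in EWAT by more than 2 on the log2 scale, because the reads of paralogues could be confused only where their sequences match. The sequences were taken from GENCODE M21 transcripts on build GRCm38 and are written 5′ to 3′ on the coding strand, with codons 42 to 58, which code for the recognition helix, in capitals. Each lies in exon 2 of 2: Hoxa5 at chr6:52202632-52202811 and Hoxa10 at chr6:52232554-52232733 on the minus strand, and Hoxc10 at chr15:102970848-102971027 on the plus strand.
Hoxa5: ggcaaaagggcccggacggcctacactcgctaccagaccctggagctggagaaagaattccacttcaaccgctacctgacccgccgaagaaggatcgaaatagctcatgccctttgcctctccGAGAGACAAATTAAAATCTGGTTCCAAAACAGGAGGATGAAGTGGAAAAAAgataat
Hoxc10: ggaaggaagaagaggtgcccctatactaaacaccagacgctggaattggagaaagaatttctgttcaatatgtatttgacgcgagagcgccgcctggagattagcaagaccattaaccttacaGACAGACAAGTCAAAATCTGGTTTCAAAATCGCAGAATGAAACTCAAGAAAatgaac
Hoxa10: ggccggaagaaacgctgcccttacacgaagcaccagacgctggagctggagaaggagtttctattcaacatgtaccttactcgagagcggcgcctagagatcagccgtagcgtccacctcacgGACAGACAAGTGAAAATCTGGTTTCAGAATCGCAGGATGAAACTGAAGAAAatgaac
The Hoxa10 and Hoxc10 homeoboxes coded for the same residue in 56 of 60 codons and matched in 145 of 180 bases, with a longest shared run of 14 bases. Over all pairs of members the longest shared run was 52 bases, between Hoxa6 and Hoxb4. The share of reads that could have matched more than 1 member was not tested.

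Hox transcripts differed between the depots for most members, and the direction changed along the Hoxa and Hoxc clusters. The joint test of any difference called 23 of the 27 tested members, against 41.7% of all genes tested. Without Hoxa11, Hoxb8, Hoxc11 and Hoxd3, which passed the count filter through 1 depot alone, it called 21 of 23. In EWAT cells the anterior and central genes were mostly higher than in the other depots, and the posterior genes Hoxa9, Hoxa10 and Hoxc10 were low. SWAT cells had high levels of Hoxa9, Hoxa10 and Hoxc10 and low levels of the Hoxa genes up to Hoxa7 apart from Hoxa6, and NWAT cells had high levels of Hoxa9 and Hoxa10 but low levels of the Hoxb cluster. In bulk samples, fewer cells of a type and less RNA per cell cannot be told apart.

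Between SWAT and EWAT, 5 members were higher in SWAT and 13 were lower, against 18% and 18.7% of all genes tested in those directions and 36.7% in either. The median log2 fold change was -0.56 over the 27 members and -0.01 over all genes. Between EWAT and NWAT, 15 members were higher in EWAT and 6 were lower, against 13.3% and 14% of all genes and 27.3% in either direction, with a median of 0.54 over the members and 0.01 over all genes. Between SWAT and NWAT 5 members were higher and 5 lower in SWAT, against 9.07% and 9.83% of all genes and 18.9% in either direction, and the medians were 0.11 and -0.02. Without the 4 members that passed the count filter through 1 depot alone, the counts were 4 higher and 13 lower in SWAT than in EWAT, 15 higher and 4 lower in EWAT than in NWAT, and 4 higher and 5 lower in SWAT than in NWAT. These comparisons share libraries and are not independent. By both pairwise tests, 11 members were highest in EWAT against 9.02% of all genes, and they were Hoxa3, Hoxa4, Hoxa5, Hoxa7, Hoxb2, Hoxb3, Hoxb5, Hoxc4, Hoxc5, Hoxc8 and Hoxd8. The 5 members lowest in EWAT, against 8.57% of all genes, were Hoxa9, Hoxa10, Hoxc9, Hoxc10 and Hoxc11, the last of them tested through SWAT alone. SWAT was lowest for 5 members, Hoxa2, Hoxa5, Hoxa7, Hoxc4 and Hoxd9, against 5.88%, and highest for 2, Hoxc10 and Hoxc11, against 6.21%. NWAT was lowest for 3, Hoxb3, Hoxb4 and Hoxb6, against 2.35%, and highest for 0, against 3.42%.

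The counts by direction differed between the paralogue groups. Of all genes tested, 18.7% were lower and 18% higher in SWAT than in EWAT. Of the anterior genes, 6 of 9 tested were lower in SWAT than in EWAT and 0 were higher. Of the central genes, 6 of 11 were lower and 0 were higher. Of the posterior genes, 5 of 7 tested were higher in SWAT and 1, Hoxd9, was lower. Against NWAT, EWAT was higher for 7 of 9 anterior and 8 of 11 central genes and lower for 0 of them. The shares of all genes were 13.3% higher and 14% lower. EWAT was higher for 0 and lower for 6 of 7 posterior genes. Of the latter, Hoxa11 and Hoxc11 were tested only through the depot where they were high; without them 4 of 5 posterior genes were higher in SWAT than in EWAT, and 4 of 5 were lower in EWAT than in NWAT. In the Hoxa cluster the sign changed between Hoxa7 and Hoxa9, and in the Hoxc cluster between Hoxc8 and Hoxc9, apart from Hoxc6 in both comparisons and Hoxa2 in EWAT against NWAT, whose differences there did not pass. As a description across genes, which are not independent, the Spearman correlation between paralogue group and the log2 fold change of SWAT against EWAT was 0.54 over 27 members, 0.63 over 9 Hoxa genes, 0.50 over 7 Hoxb genes and 0.89 over 7 Hoxc genes. For EWAT against NWAT it was -0.66, -0.55, -0.61 and -0.93 in the same order. For SWAT against NWAT it was 0.02, 0.33, 0.50 and 0.89 in the same order. Over the 23 members without those tested through 1 depot alone, it was 0.38 for SWAT against EWAT, -0.56 for EWAT against NWAT and 0.01 for SWAT against NWAT. The values by cluster include Hoxa11, Hoxb8 and Hoxc11, which were tested through 1 depot alone. They were not recalculated without these genes, so they are given no weight.

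**Figure D1:**
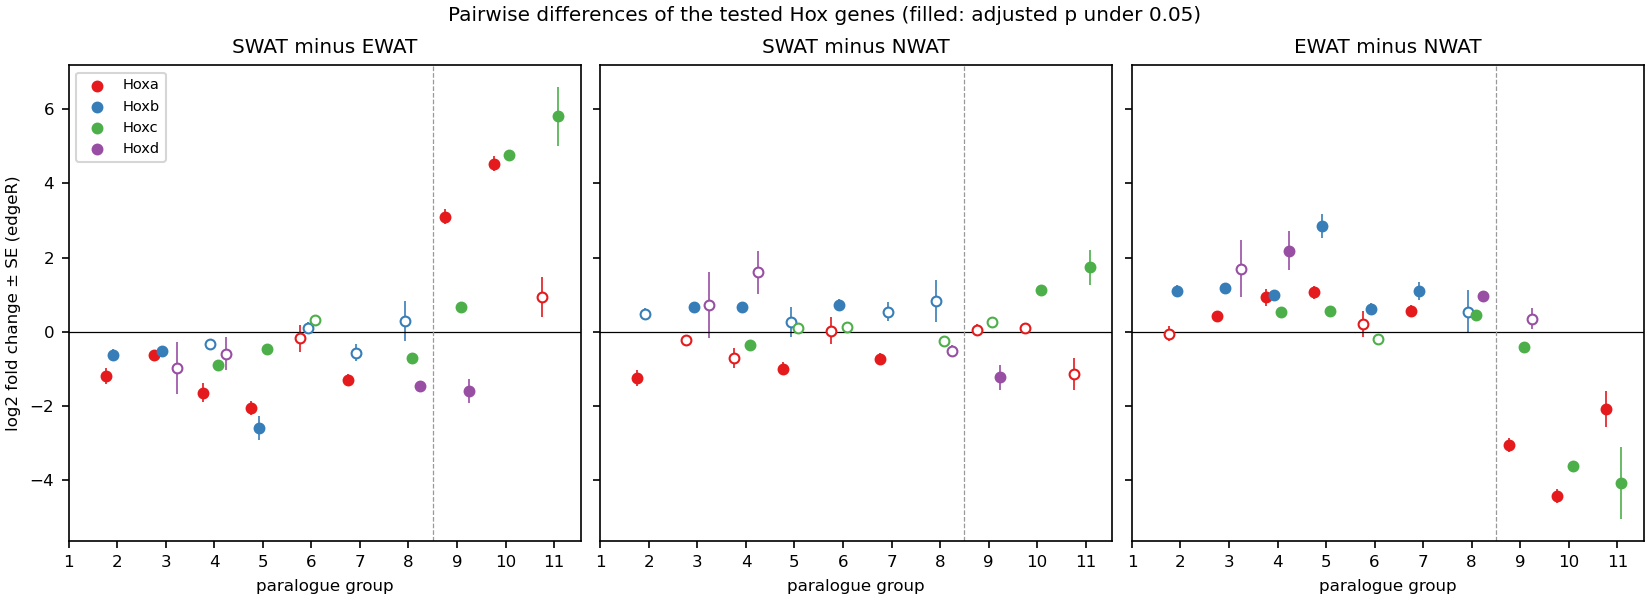
Log2 fold change of each tested Hox gene (y axis, edgeR, with SE bars) against its paralogue group (x axis) in SWAT minus EWAT, SWAT minus NWAT and EWAT minus NWAT. Colours give the cluster, filled points passed the test at an adjusted p of 0.05, and the dashed line divides groups 1 to 8 from the posterior groups; to its right Hoxa9, Hoxa10, Hoxc9, Hoxc10 and Hoxc11 lie above 0 in the left panel and below 0 in the right panel.

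The posterior genes carried the largest differences. Levels below are CPM, counts scaled to the library total with TMM factors, in the order replicate 1 and replicate 2, and each difference is a log2 fold change with its SE from edgeR's quasi-likelihood test, with p-values adjusted over all genes tested. Hoxc10, a gene of lumbar and hindlimb regions in the embryo, read 53.2 and 59.0 CPM in SWAT, 1.91 and 2.25 in EWAT, and 25.2 and 26.2 in NWAT. The depots did not overlap, and every pair differed: SWAT exceeded EWAT by 4.75 ± 0.14 (adjusted p = 1.13e-09) and NWAT by 1.13 ± 0.11 (adjusted p = 1.97e-05), and EWAT was below NWAT at -3.62 ± 0.14 (adjusted p = 3.88e-08). Hoxa10, its paralogue in the Hoxa cluster, read 16.6 and 15.4 CPM in SWAT, 0.654 and 0.719 in EWAT, and 13.9 and 15.8 in NWAT. It was low in EWAT only, with differences of 4.53 ± 0.19 for SWAT versus EWAT (adjusted p = 1.3e-08) and -4.42 ± 0.19 for EWAT versus NWAT (adjusted p = 5.58e-08). Its difference of 0.11 ± 0.13 between SWAT and NWAT did not pass (adjusted p = 0.623). So these paralogues shared their low level in EWAT, but only Hoxc10 passed the test between SWAT and NWAT; whether their SWAT to NWAT differences differ from each other was not tested.

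Hoxa9, which lies beside Hoxa10 and is active in the trunk and in blood-forming cells, read 10.9 and 10.4 CPM in SWAT, 1.03 and 1.44 in EWAT, and 9.88 and 10.6 in NWAT. Its pattern was that of Hoxa10, with 3.10 ± 0.20 for SWAT versus EWAT (adjusted p = 3.07e-07), -3.05 ± 0.20 for EWAT versus NWAT (adjusted p = 8.73e-07) and 0.06 ± 0.16 for SWAT versus NWAT (adjusted p = 0.84). Hoxc9, its Hoxc paralogue, had a much smaller spread between depots, with 18.2 and 17.8 CPM in SWAT, 11.3 and 11.3 in EWAT, and 14.9 and 14.8 in NWAT. SWAT exceeded EWAT by 0.67 ± 0.12 (adjusted p = 0.000935). The EWAT to NWAT difference of -0.40 ± 0.12 (adjusted p = 0.0251) was lost in 7 of 15 alternative settings, with adjusted p up to 0.111.

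Hoxd9 departed from the other posterior genes. It is the Hoxd paralogue of Hoxa9 and Hoxc9, and read 0.823 and 0.897 CPM in SWAT, 2.62 and 2.56 in EWAT, and 2.39 and 1.65 in NWAT. SWAT was below EWAT at -1.58 ± 0.32 (adjusted p = 0.00266) and below NWAT at -1.23 ± 0.33 (adjusted p = 0.0228, lost in 4 of 15 alternatives with adjusted p up to 0.175), and the difference of 0.36 ± 0.28 between EWAT and NWAT did not pass (adjusted p = 0.373). Within paralogue group 9, then, the Hoxa and Hoxc members were higher in SWAT than in EWAT and the Hoxd member was lower.

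The remaining posterior genes rested on few reads. Hoxc11 had 30 and 30 counts in SWAT, 0 and 1 in EWAT, and 14 and 6 in NWAT. Scaled to library size this was a 70.4-fold higher level in SWAT than in EWAT, with an exact 95% interval from the counts of 12.2 to 2828, a 3.35-fold higher level in SWAT than in NWAT (1.99 to 5.87), and a 21.0-fold higher level in NWAT than in EWAT (3.36 to 871). These intervals cover counting error only. Hoxc11 passed the count filter through SWAT alone, the depot where it was high, so its calls are given no weight. Hoxa11 read 0.225 to 0.768 CPM in SWAT and EWAT and 1.57 and 1.16 in NWAT, and it passed the count filter through NWAT alone. Hoxa13, the last gene of its cluster, missed the count filter and had 6 and 3 counts in NWAT and 0 in the other 4 libraries. Against a floor of 3 counts per library it was at least 1.34-fold higher in NWAT than in SWAT and at least 1.58-fold higher than in EWAT, as a description of these libraries. Hoxb9 had 2.37 to 6.30 estimated counts in every library, Hoxd10 and Hoxd11 had at most 3.91, and Hoxc13 and Hoxd13 had 1 count in 1 library each, in SWAT and in EWAT respectively.

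Between SWAT and EWAT, the central genes Hoxa5 and Hoxb5 had the largest differences in the opposite direction. Hoxa5, known from lung, axial skeleton and fat development, read 6.91 and 9.55 CPM in SWAT, 31.8 and 36.5 in EWAT, and 18.7 and 14.0 in NWAT. The depots did not overlap, and the differences were -2.05 ± 0.18 for SWAT versus EWAT (adjusted p = 7.52e-06), -0.99 ± 0.18 for SWAT versus NWAT (adjusted p = 0.00325) and 1.06 ± 0.17 for EWAT versus NWAT (adjusted p = 0.000817). Hoxb5, its Hoxb paralogue, read 0.768 and 1.37 CPM in SWAT, 5.604 and 7.32 in EWAT, and 1.097 and 0.679 in NWAT. It was high in EWAT only, with -2.58 ± 0.32 for SWAT versus EWAT (adjusted p = 7.87e-05), 2.85 ± 0.32 for EWAT versus NWAT (adjusted p = 5.84e-05) and 0.27 ± 0.40 for SWAT versus NWAT (adjusted p = 0.7). Hoxc5, the other paralogue of the group, differed less, with 11.5 and 11.7 CPM in SWAT, 16.8 and 14.9 in EWAT, and 10.8 and 10.7 in NWAT. EWAT exceeded NWAT by 0.56 ± 0.13 (adjusted p = 0.00669), and the SWAT to EWAT difference of -0.45 ± 0.13 (adjusted p = 0.0158) was lost in 4 of 15 alternatives (adjusted p up to 0.0921). All members of paralogue group 5 were thus highest in EWAT by both pairwise tests.

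Hoxa7, a gene of the thoracic region, read 5.59 and 6.43 CPM in SWAT, 13.9 and 15.7 in EWAT, and 10.9 and 9.02 in NWAT. SWAT was below EWAT at -1.30 ± 0.16 (adjusted p = 5.88e-05) and below NWAT at -0.73 ± 0.16 (adjusted p = 0.00768), and EWAT exceeded NWAT by 0.57 ± 0.15 (adjusted p = 0.0135). The order of depots was that of Hoxa5, and both comparisons with NWAT were lost when some single libraries were left out (adjusted p up to 0.0825 for SWAT and 0.118 for EWAT). Hoxd8 read 5.10 and 4.96 CPM in SWAT, 12.7 and 15.1 in EWAT, and 7.44 and 6.84 in NWAT, with -1.47 ± 0.16 for SWAT versus EWAT (adjusted p = 2.16e-05) and 0.96 ± 0.15 for EWAT versus NWAT (adjusted p = 0.000571). Its libraries fell in the same order, although the SWAT to NWAT difference of -0.51 ± 0.16 did not pass (adjusted p = 0.0503). Hoxc8, which marks the thoracic region together with Hoxc6, read 45.4 and 45.96 CPM in SWAT, 76.1 and 73.9 in EWAT, and 50.6 and 58.9 in NWAT. EWAT exceeded SWAT, with -0.72 ± 0.10 for SWAT versus EWAT (adjusted p = 0.000277), and exceeded NWAT by 0.46 ± 0.10 (adjusted p = 0.00709), the latter lost without NWAT replicate 1 (adjusted p = 0.107).

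The central Hoxb genes were lowest in NWAT by their means, although for Hoxb5 and Hoxb8 the NWAT libraries overlapped those of another depot. Hoxb6 read 9.05 and 9.91 CPM in SWAT, 8.36 and 9.12 in EWAT, and 6.35 and 5.14 in NWAT. The SWAT and EWAT libraries overlapped, and both depots exceeded NWAT, by 0.72 ± 0.16 (adjusted p = 0.00889) and 0.60 ± 0.16 (adjusted p = 0.0171), each lost in 3 of 15 alternatives (adjusted p up to 0.0964 and 0.138). Hoxb7 read 2.69 and 3.32 CPM in SWAT, 3.88 and 4.99 in EWAT, and 2.05 and 2.09 in NWAT, and of its differences that of 1.098 ± 0.24 between EWAT and NWAT passed (adjusted p = 0.00619; 0.0501 without EWAT replicate 2). Hoxa6 read 1.17 to 2.24 CPM and Hoxb8 0.194 to 0.768 CPM over all libraries, with no depot set apart from the others. Neither passed the joint test (adjusted p = 0.85 and 0.463). Hoxc6 is described further below.

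Among the anterior genes, those of the Hoxa cluster were lowest in SWAT by their means. Hoxa2, which patterns the hindbrain and second branchial arch, read 2.63 and 2.11 CPM in SWAT, 5.32 and 5.57 in EWAT, and 6.16 and 5.09 in NWAT. It was low in SWAT only, with -1.20 ± 0.22 against EWAT (adjusted p = 0.00122) and -1.25 ± 0.22 against NWAT (adjusted p = 0.0017), while EWAT and NWAT overlapped. Hoxa4 read 1.86 and 1.42 CPM in SWAT, 5.09 and 5.17 in EWAT, and 3.10 and 2.28 in NWAT, with -1.64 ± 0.26 for SWAT versus EWAT (adjusted p = 0.000455) and 0.93 ± 0.24 for EWAT versus NWAT (adjusted p = 0.0136; 0.114 without NWAT replicate 2). Hoxa3 had a narrower range, with 13.9 and 12.9 CPM in SWAT, 20.6 and 20.9 in EWAT, and 15.7 and 15.3 in NWAT. Its differences were -0.63 ± 0.11 for SWAT versus EWAT (adjusted p = 0.0013) and 0.42 ± 0.11 for EWAT versus NWAT (adjusted p = 0.0172, lost in 4 of 15 alternatives with adjusted p up to 0.0946). The annotated span of Hoxa3 overlaps Hoxa4, Hoxa5 and Hoxa6. The estimated counts of Hoxa4 and Hoxa5 were whole in every library, and those of Hoxa3 and Hoxa6 were not whole in 1 and 2 libraries. How reads were split among these genes was not tested.

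The anterior Hoxb genes were lowest in NWAT by their means. Hoxb2, which acts in the hindbrain, read 9.98 and 8.17 CPM in SWAT, 12.98 and 14.7 in EWAT, and 6.82 and 6.07 in NWAT. EWAT exceeded NWAT by 1.104 ± 0.15 (adjusted p = 0.000279), and the SWAT to EWAT difference of -0.61 ± 0.15 (adjusted p = 0.00853) was lost without SWAT replicate 2 (adjusted p = 0.0964). Hoxb3 read 13.5 and 14.7 CPM in SWAT, 20.3 and 20.04 in EWAT, and 10.4 and 7.48 in NWAT, and all pairs passed, with 1.18 ± 0.15 for EWAT versus NWAT (adjusted p = 0.00016), -0.52 ± 0.15 for SWAT versus EWAT (adjusted p = 0.018) and 0.66 ± 0.16 for SWAT versus NWAT (adjusted p = 0.0117). The last of these was lost in 5 of 15 alternatives (adjusted p up to 0.114), and that between SWAT and EWAT without either SWAT library (adjusted p up to 0.122). Hoxb4, known from blood-forming stem cells, read 13.2 and 12.2 CPM in SWAT, 15.8 and 15.7 in EWAT, and 8.33 and 7.58 in NWAT. NWAT stood below both other depots, with 0.68 ± 0.13 for SWAT versus NWAT (adjusted p = 0.0035) and 0.99 ± 0.13 for EWAT versus NWAT (adjusted p = 0.00016), and SWAT against EWAT at -0.31 ± 0.12 did not pass (adjusted p = 0.0688). Hoxb3 and Hoxb4 overlap in the annotation, so their reads may be partly shared. Over the 7 tested Hoxb genes, 6 were higher in EWAT than in NWAT and 3 in SWAT than in NWAT, with 0 in the other direction. Over the 9 tested Hoxa genes, 0 were higher and 3 were lower in SWAT than in NWAT. Of all genes tested, 13.3% were higher and 14% lower in EWAT than in NWAT. In SWAT, 9.07% were higher and 9.83% lower than in NWAT.

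Hoxc4 had the highest FPKM of the anterior genes in every library, and read 28.6 and 31.9 CPM in SWAT, 55.8 and 56.5 in EWAT, and 39.0 and 38.0 in NWAT. The differences were -0.89 ± 0.10 for SWAT versus EWAT (adjusted p = 3.82e-05), 0.54 ± 0.10 for EWAT versus NWAT (adjusted p = 0.00186) and -0.35 ± 0.10 for SWAT versus NWAT (adjusted p = 0.0349, lost in 6 of 15 alternatives with adjusted p up to 0.272). The anterior Hoxd genes were near the limit of detection. Hoxd4 read 0.658 and 0.686 CPM in SWAT, 1.21 and 0.809 in EWAT, and 0.143 and 0.291 in NWAT, and the difference of 2.19 ± 0.53 between EWAT and NWAT passed (adjusted p = 0.0102), but not without EWAT replicate 1 or NWAT replicate 1 (adjusted p up to 0.0983). Hoxd3, which overlaps Hoxd4, read 0.0548 to 0.718 CPM and did not pass the joint test (adjusted p = 0.178). Hoxb1 had 1 count in 1 SWAT library. Of the 27 tested members, 22 were over the count cutoff in all 6 libraries, 1, Hoxd4, in 2 depots, and 4, Hoxa11, Hoxb8, Hoxc11 and Hoxd3, were tested through 1 depot alone.

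**Figure D2:**
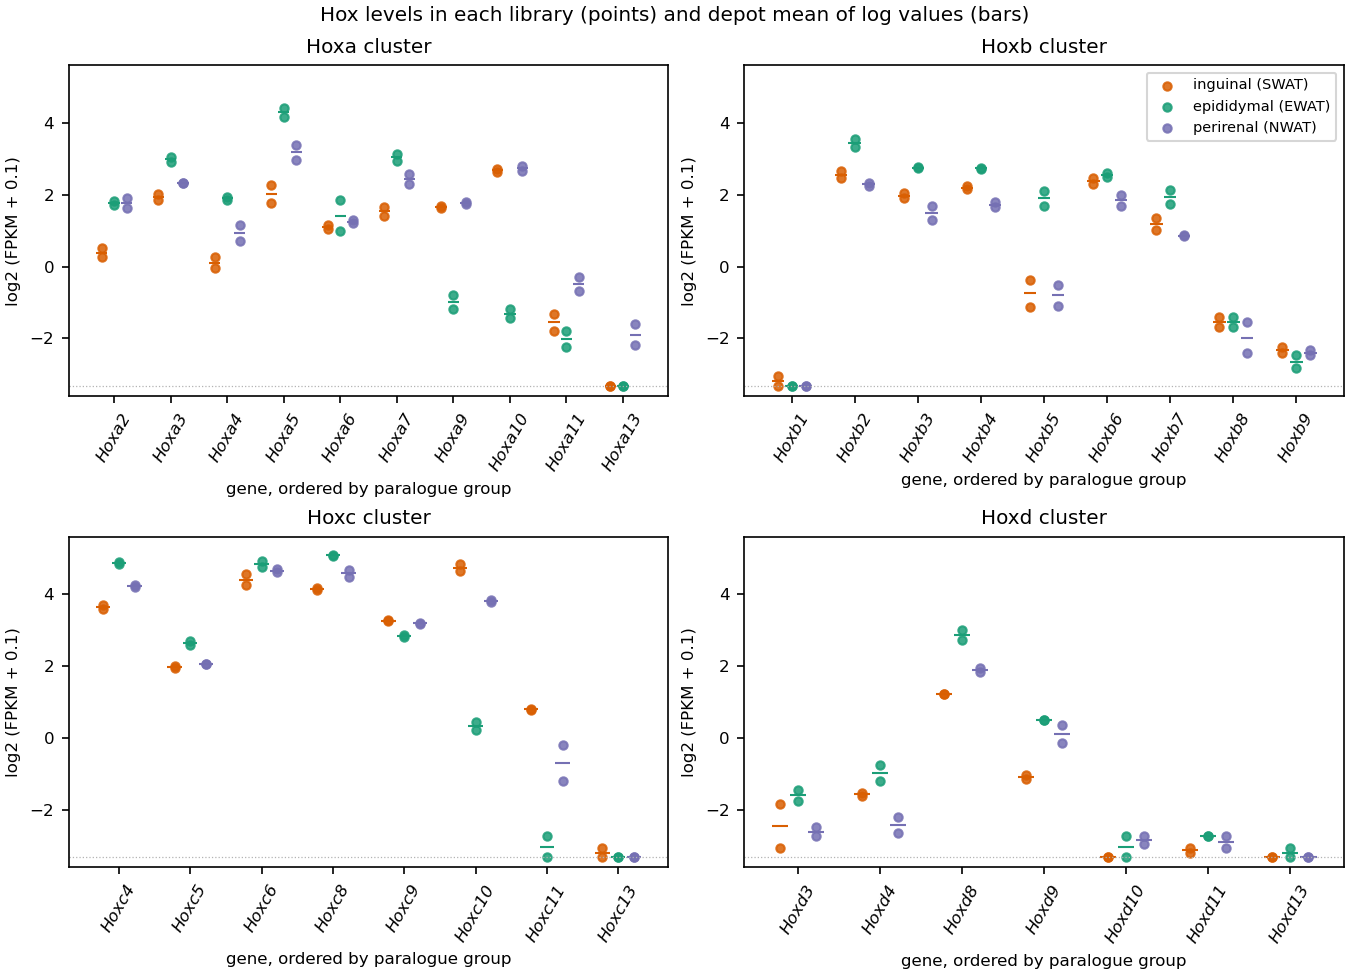
Level of each of the 34 Hox genes in each library (points) as log2 (FPKM + 0.1), with the mean of the log values of each depot as a bar, by cluster and in order of paralogue group; the dotted line marks a listed value of 0. In the Hoxa and Hoxc panels the EWAT points lie above the SWAT points up to Hoxa7 and Hoxc8, apart from overlap at Hoxa6, and below them at Hoxa9, Hoxa10, Hoxc9, Hoxc10 and Hoxc11.

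Levels of different genes can be compared only per transcript length, for which the deposited FPKM values (fragments per kilobase, scaled to library size) were used. The Hoxc cluster gave most of the Hox signal, with 65.2% ± 1.21 (SD, n = 2) of the summed FPKM of all members in SWAT, 53.5% ± 1.13 in EWAT and 61.8% ± 2.34 in NWAT. The Hoxd cluster gave 2.07% ± 0.00124, 4.69% ± 0.217 and 3.14% ± 0.241. In SWAT the highest FPKM were 26.7 ± 2.47 for Hoxc10, 21.3 ± 3.08 for Hoxc6 and 17.5 ± 0.502 for Hoxc8, with 24.99 and 28.48 for Hoxc10 and 19.1 and 23.45 for Hoxc6 by library. The order of these genes is uncertain, because the FPKM of Hoxc6 rests on a length that differed between libraries, as described below. In EWAT they were 33.8 ± 0.0919 for Hoxc8, 29.2 ± 0.976 for Hoxc4 and 28.8 ± 2.50 for Hoxc6, of which Hoxc4 and Hoxc6 overlapped, followed by 19.5 ± 2.28 for Hoxa5. In NWAT they were 25.2 ± 1.17 for Hoxc6, 23.9 ± 2.40 for Hoxc8 and 18.6 ± 0.424 for Hoxc4, of which Hoxc6 and Hoxc8 overlapped, followed by 13.9 ± 0.276 for Hoxc10. Hoxc4, Hoxc6 and Hoxc8 were thus among the first 4 in every depot, whereas Hoxc10 ranked 20 in EWAT, at a mean FPKM of 1.165.

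The posterior groups made up 33.9% and 33.4% of the summed Hox FPKM in the SWAT libraries, 5.39% and 5.25% in the EWAT libraries, and 22.5% and 23.4% in the NWAT libraries. The depots did not overlap, and their means differed by far more than the SD of replicates (33.7% ± 0.386, 5.32% ± 0.0967 and 22.95% ± 0.645, SD, n = 2). The central groups gave 43.3% in SWAT, 60.2% in EWAT and 51.4% in NWAT, and the anterior groups 23.1%, 34.5% and 25.6%. Summed over all members, FPKM was 137 and 148.2 in SWAT, 191.6 and 206.3 in EWAT, and 157.6 and 150.8 in NWAT. The sums of CPM, which are not divided by length, were 334.9 and 360.3 in SWAT, 381.6 and 390.6 in EWAT, and 331.3 and 320.9 in NWAT. EWAT thus had the highest sum on both scales in spite of its low posterior genes, by a narrower margin over SWAT on CPM, while the order of the SWAT and NWAT means turned between the scales. Values on the FPKM scale are shifted against TMM-scaled counts, by a median over genes of -0.22 (log2) for SWAT versus EWAT, -0.17 for SWAT versus NWAT and 0.04 for EWAT versus NWAT. With limma on log2 (FPKM + 1), 4 members were higher and 10 lower in SWAT than in NWAT, in place of 5 and 5. So the balance of directions in that comparison depends on the scale. The shares of all genes called on that scale were not counted, and the median shift of -0.17 covers all genes, so no trait of the members is drawn from this.

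**Figure D3:**
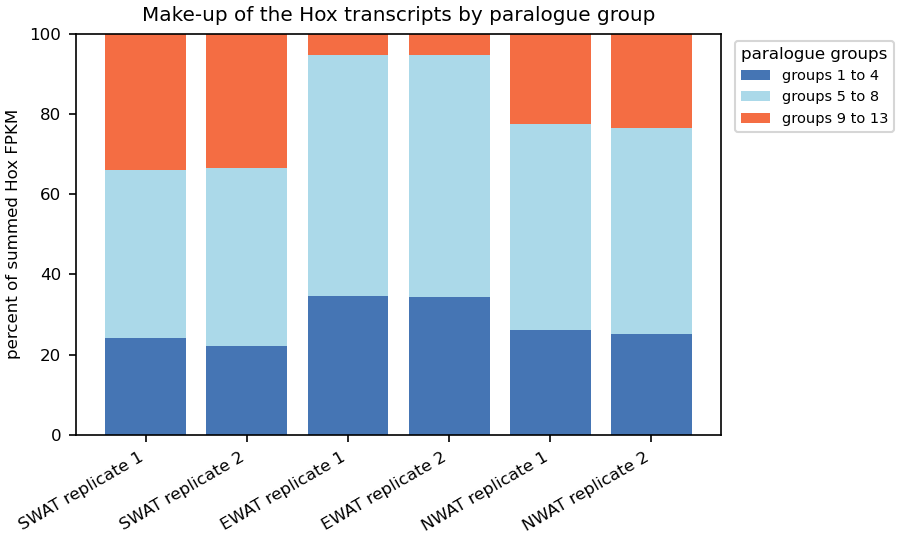
Share of the summed Hox FPKM (y axis, percent) in each library (x axis) that came from paralogue groups 1 to 4, 5 to 8 and 9 to 13, as stacked bars. The share of groups 9 to 13 was 33.9% and 33.4% in SWAT, 5.39% and 5.25% in EWAT, and 22.5% and 23.4% in NWAT.

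Hoxc6, an abundant central gene, was the member that changed sign between counts and FPKM and passed the test on FPKM. It read 58.5 and 74.4 CPM in SWAT, 53.7 and 52.3 in EWAT, and 62.3 and 58.5 in NWAT, and did not pass the joint test (adjusted p = 0.104). SWAT against EWAT was 0.33 ± 0.12 on counts (adjusted p = 0.0505) and -0.43 on log2 (FPKM + 1) with limma (adjusted p = 0.0176), a change of sign that is larger than the median shift between the scales. The deposited FPKM divide counts by a length, so the ratio of count to FPKM gives the length that they imply in each library. Relative to the mean of the 6 libraries, after each library was scaled, this implied length of Hoxc6 was 1.128 and 1.203 in SWAT, 0.860 and 0.760 in EWAT, and 1.028 and 1.021 in NWAT. The highest depot was 1.439 times the lowest, a ratio that 0.0422% of 9469 genes at 100 or more counts in all libraries exceeded, against a median of 1.006. Hoxa3 followed with a ratio of 1.153, which 1.36% of genes exceeded, and its implied length was lowest in the EWAT libraries at 0.939 and 0.877. These were 2 of 12 members at that depth with a ratio over 1.1, against 3.74% of genes, and Hoxc4 was next at 1.079. For Hoxa5, Hoxa7, Hoxb4, Hoxc5, Hoxc8 and Hoxc9 the ratio was at most 1.002. How the authors' lengths were set is not given in the sources used here, and whether transcript forms differed between depots was not tested.

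**Figure D4:**
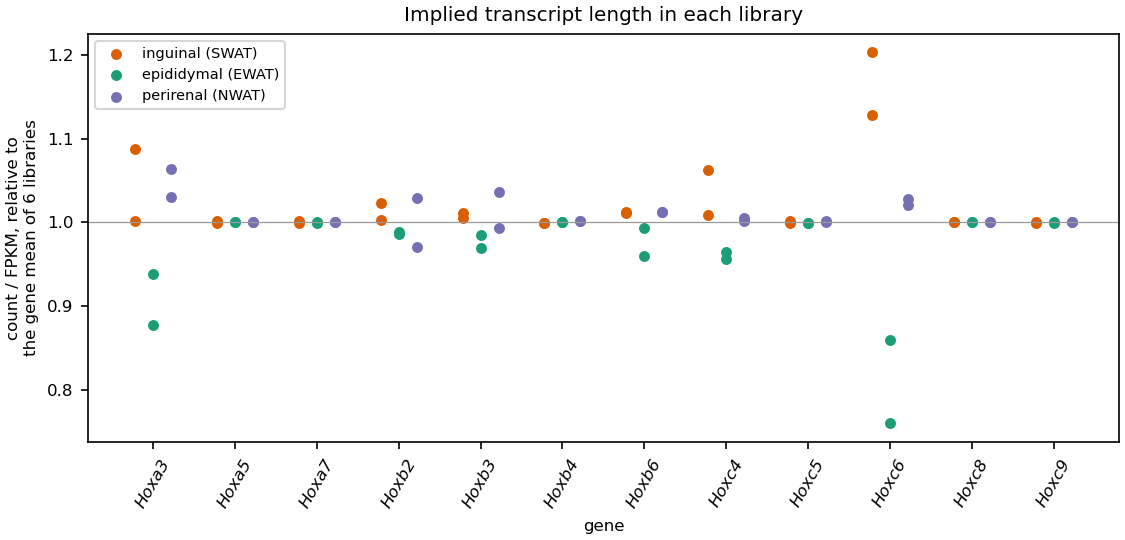
Implied transcript length (y axis, count divided by FPKM, relative to the gene's mean over 6 libraries) in each library for the 12 Hox genes with at least 100 counts in every library (x axis). The Hoxc6 points run from 0.760 in EWAT to 1.203 in SWAT, and those of Hoxa5, Hoxc8 and Hoxc9 lie on the line at 1.

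Hox proteins bind DNA together with TALE homeodomain proteins of the Pbx, Meis and Pknox families. All 8 listed genes of these families were tested and 2 passed the joint test, against 41.7% of all genes tested. Meis1 read 28.3 and 30.1 CPM in SWAT, 76.4 and 68.4 in EWAT, and 55.5 and 56.6 in NWAT, with -1.31 ± 0.10 for SWAT versus EWAT (adjusted p = 1.78e-06), -0.94 ± 0.10 for SWAT versus NWAT (adjusted p = 5.57e-05) and 0.37 ± 0.10 for EWAT versus NWAT (adjusted p = 0.017). Its order of depots was that of Hoxa5 and Hoxa7. Meis2 read 34.6 and 38.9 CPM in SWAT, 51.2 and 49.2 in EWAT, and 49.5 and 51.2 in NWAT, and was lower in SWAT than in each of the others by the same -0.45 ± 0.10 (adjusted p = 0.00523 and 0.00873).

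Retinoic acid is the classical inducer of anterior Hox genes, and Cdx proteins act on the central and posterior ones. Of 13 listed genes with a row, 10 were tested and 9 passed the joint test, against 41.7% of all genes tested, with changes in both directions. In SWAT, 4 were higher and 3 lower than in EWAT (36.7% of all genes in either direction), and 4 higher and 2 lower than in NWAT (18.9%). In EWAT, 2 were higher and 3 lower than in NWAT (27.3%). Cyp26b1, which degrades retinoic acid, read 154 and 149 CPM in SWAT, 1.91 and 2.56 in EWAT, and 22.5 and 32.8 in NWAT. Its order of depots was that of Hoxc10, with 6.08 ± 0.21 for SWAT versus EWAT (adjusted p = 1.2e-08) and -3.62 ± 0.21 for EWAT versus NWAT (adjusted p = 9.95e-07). Aldh1a2, which makes retinoic acid, had 1.32 and 2.27 CPM in SWAT, 31.6 and 28.7 in EWAT, and 3.53 and 2.09 in NWAT. Like Hoxb5 it was high in EWAT only, with -4.06 ± 0.25 for SWAT versus EWAT (adjusted p = 5.08e-07) and 3.42 ± 0.23 for EWAT versus NWAT (adjusted p = 2.16e-06). The related enzyme gene Aldh1a1 was also highest in EWAT (-1.08 ± 0.10 for SWAT versus EWAT, adjusted p = 6.31e-06), and Aldh1a3 was lowest in SWAT (-1.33 ± 0.12 against EWAT, adjusted p = 7.51e-06). The receptor gene Rxrg read 4.50 and 5.61 CPM in SWAT and 0.128 to 0.477 in the other libraries (5.14 ± 0.44 for SWAT versus EWAT, adjusted p = 3.9e-06). Like Hoxc11, Rxrg passed the count filter through SWAT alone, the depot where it was high, so its call is given no weight. The list's joint count and its count higher in SWAT than in EWAT include Rxrg and were not recalculated without it. The receptor gene Rarb was highest in NWAT (-1.14 ± 0.15 for EWAT versus NWAT, adjusted p = 0.000177). Cdx1 had at most 0.0548 CPM in any library, and Cdx2 and Cdx4 are not analysed here. The part of these genes in the Hox differences was not tested.

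**Figure D5:**
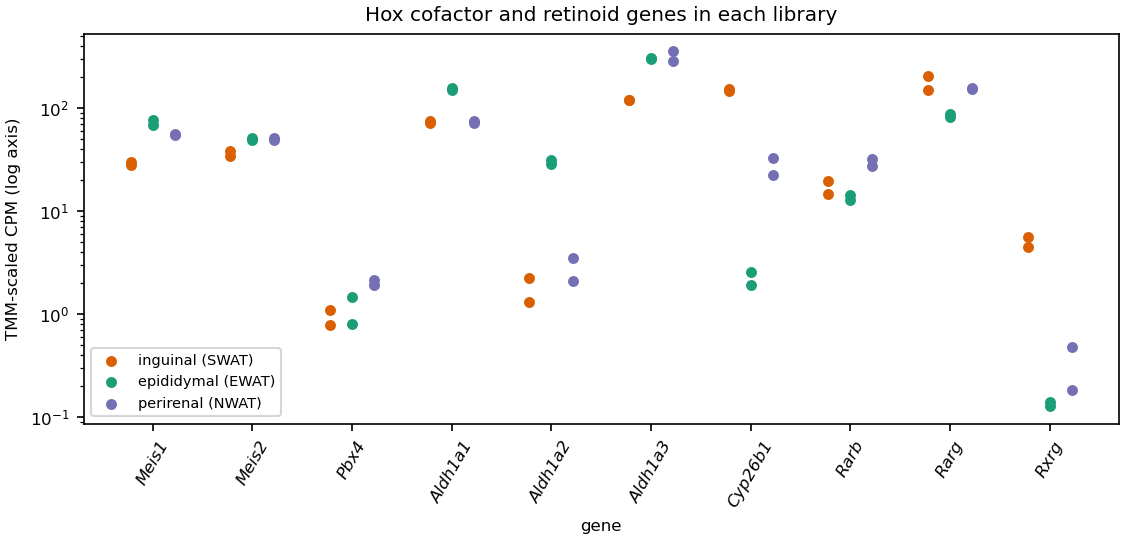
TMM-scaled CPM (log y axis) of 10 TALE cofactor and retinoid genes (x axis) in each library, with 1 point per library coloured by depot. Cyp26b1 lies at 154 and 149 CPM in SWAT and at 1.91 and 2.56 in EWAT, and Aldh1a2 is highest in EWAT at 31.6 and 28.7.

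Polycomb proteins keep Hox genes silent and trithorax proteins keep them active through histone marks. All 27 listed genes of these groups and their partners were tested and 9 passed the joint test, against 41.7% of all genes tested. In SWAT, 8 were higher and 3 lower than in EWAT (18% and 18.7% of all genes), and 1 higher and 2 lower than in NWAT (9.07% and 9.83%). In EWAT, 0 were higher and 5 lower than in NWAT (13.3% and 14%). The trithorax methyltransferase gene Kmt2a read 142 and 158 CPM in SWAT, 94.3 and 62.4 in EWAT, and 137 and 132 in NWAT, with 0.94 ± 0.17 for SWAT versus EWAT (adjusted p = 0.0016). Kmt2d had a like pattern, with 164 and 169 CPM in SWAT, 107 and 61.9 in EWAT, and 131 and 126 in NWAT (0.98 ± 0.21 for SWAT versus EWAT, adjusted p = 0.00815). Both differed between the EWAT replicates by more than between those of the other depots, with replicate 2 the lower. The Polycomb reader gene Cbx2 was higher in SWAT than in EWAT by 0.87 ± 0.21 (adjusted p = 0.00835), the histone demethylase gene Kdm6b was lower in EWAT than in NWAT at -0.78 ± 0.15 (adjusted p = 0.00311), and Psip1, whose product binds active Hox chromatin, was lower in SWAT than in NWAT at -0.68 ± 0.10 (adjusted p = 0.000408). Phc3, a Polycomb repressive complex gene, was higher in SWAT than in EWAT by 0.56 ± 0.17 (adjusted p = 0.0302). Among those that passed, the largest pairwise difference was 0.98, against 4.75 for Hoxc10.

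Of the genes that flank the clusters, 5 on each side, 36 of 40 were tested and 12 passed the joint test, against 41.7% of all genes tested. They were the nearest protein-coding genes with a row, 28.1 to 1171 kb from the cluster ends, so many are not adjacent. In SWAT, 1 was higher and 9 lower than in EWAT (18% and 18.7% of all genes), and 1 higher and 5 lower than in NWAT (9.07% and 9.83%). In EWAT, 6 were higher and 1 lower than in NWAT (13.3% and 14%). The homeobox gene Evx1, beside Hoxa13, had 1 count in 1 EWAT library. On the same side of the Hoxa cluster, Jazf1, 507 kb away, was higher in EWAT than in NWAT by 0.87 ± 0.14 (adjusted p = 0.000923). Creb5, 1026 kb away, was lower at -1.01 ± 0.11 (adjusted p = 5.16e-05). Cbx5, which codes for a heterochromatin protein, lies 155 kb from the Hoxc cluster on the Hoxc4 side. It read 58.04 and 62.1 CPM in SWAT, 112 and 100 in EWAT, and 88.6 and 81.5 in NWAT, the order of depots of Hoxc4 (-0.82 ± 0.11 for SWAT versus EWAT, adjusted p = 0.000108). Near the Hoxd cluster, Chn1 (893 kb away) was lower in SWAT than in EWAT at -1.61 ± 0.31 (adjusted p = 0.00185) and Mtx2 (60.7 kb away) at -0.62 ± 0.18 (adjusted p = 0.0205). Copz2, 482 kb from the Hoxb cluster, was higher in SWAT than in NWAT by 0.58 ± 0.11 (adjusted p = 0.00366). The changes of more than 3 on the log2 scale seen for Hoxa9, Hoxa10 and Hoxc10 had no counterpart among the neighbours that passed, whose largest difference was the -1.61 of Chn1.

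Library totals ran from 20026413 to 20638724 estimated counts, and Hox genes together had 6107 to 8694 of them. Replicates differed by more than counting noise in each depot (chi-square per degree of freedom of 9.53 to 20.2). All 11 stem cell markers in the table were detected in every library, with summed levels of 17387 to 17416 CPM in SWAT, 21242 to 21943 in EWAT and 19154 to 19472 in NWAT. Of them, 9 passed the joint test, against 41.7% of all genes tested. In SWAT, 6 were higher and 2 lower than in EWAT (18% and 18.7% of all genes). The median log2 fold change was 0.52, so most single markers ran against the sum. In EWAT, 2 were higher and 5 lower than in NWAT (13.3% and 14% of all genes). In SWAT, 4 were higher and 2 lower than in NWAT (9.07% and 9.83%). Markers of other cells moved with the depots too. Of 7 tested mesothelial markers, 6 were lower and 1 was higher in SWAT than in EWAT, against 18.7% and 18% of all genes tested. Wt1, Upk1b, Muc16 and Bnc1 were at 0 in both SWAT libraries. A marker at 0 in SWAT could pass the count filter only through other depots, so such calls are given no weight. The 10 listed markers summed to 3.51 to 4.27 CPM in SWAT, 161 to 170 in EWAT and 120 to 147 in NWAT; without Wt1, which made up most of the sum, the other 9 summed to 3.51 to 4.27 CPM in SWAT, 9.40 to 9.48 in EWAT and 11.9 to 13.3 in NWAT. The 7 macrophage and leukocyte markers summed to 11.3 to 20.8 CPM in SWAT, 33.5 to 35.3 in EWAT and 18.8 to 19.6 in NWAT, with Ptprc at most 0.854. Other lists moved too: 7 endothelial markers summed to 247 to 282 CPM in SWAT, 199 to 233 in EWAT and 347 to 368 in NWAT, and 5 mural markers to 43.3 to 62.4, 43.9 to 48.8 and 18.5 to 21.8. The 3 kidney and adrenal markers in the table summed to 3.56 to 4.59 CPM in SWAT, 18.4 to 19.9 in EWAT and 6.79 to 9.83 in NWAT, the order of depots of Hoxa5. Only 1 of these 3 had enough counts to be tested, and 2 were at 0 in both SWAT libraries. The 5 adipocyte markers summed to 54.1 to 113 CPM in SWAT, 112 to 163 in EWAT and 51.2 to 57.0 in NWAT, and 4 Schwann cell markers to 11.7 to 16.3, 4.52 to 6.06 and 4.55 to 5.197. Erythroid markers summed to 156 CPM in NWAT replicate 2 and to 4.82 to 14.3 in the other libraries. The part of these cells in the Hox differences was not tested. No epididymis epithelium marker was among the symbols used here.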

How the data were processed

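Adipose-derived stem cells from 3 fat depots were measured by bulk RNA sequencing in 6 libraries. The authors deposited estimated counts per gene, not normalized, per the file headers, of which 31.7% to 33.1% of values are not whole, and FPKM values, which are scaled to gene length and library size, per the file headers. The submitters' processing notes name GRCm38.p6, Cell Ranger and Seurat without roles or versions; for the aligner, counting program and strand setting the entry is: not given in the sources used here. Each deposited file has 2 columns that match no label and these were not used, so the mesenteric depot is not analysed here. For 1 symbol listed more than once, the entry with the higher total was kept.

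Counts were rounded and tested in R 4.3.3 with edgeR 4.0.16 (TMM factors, filterByExpr per depot at a minimum count of 10 and minimum total of 15, robust quasi-likelihood fit of all libraries, 3 residual degrees of freedom, common biological coefficient of variation 0.0979), with Benjamini-Hochberg adjustment over all genes at 0.05. The code was tested on simulated data. Alternatives were DESeq2 1.42.0, other filters and factors, a replicate block, leaving out each library, each pair alone, and limma 3.58.1 on log2 (FPKM + 1) or log2 (FPKM + 0.1) with FPKM of at least 0.5 in 2 libraries. Members that passed the joint test and reached 4 CPM in a depot are given by library, and from each further list at most 6 that passed the joint test, by the size of their largest difference; other names, such as Hoxd9, Hoxc11 and Hoxc6, were chosen after their values were seen. Some genes and sequences are not reported here. The members and lists were chosen with earlier results of these data known. Depth limits precision to about the counts given; intervals cover counting error only.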

Additional observations from a re-analysis of the deposited data

How the results depend on the processing

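No called Hox difference reversed under any alternative that was run, and the counts of members called in the joint test, higher or lower in SWAT than in EWAT, and higher in EWAT than in NWAT stayed within 1.5 times the reported ones. With single libraries left out these ran from 21 to 24, 5 to 6, 10 to 13 and 11 to 15. The SWAT to NWAT counts were the least stable. In place of 5 higher, limma on log2 (FPKM + 1) without a filter gave 3, and in place of 5 lower DESeq2 gave 3, limma gave 10 on log2 (FPKM + 1), with or without a filter, and 10 on log2 (FPKM + 0.1). With single libraries left out, 2 to 6 were higher (2 without SWAT replicate 2 or NWAT replicate 2) and 2 to 6 lower (2 without SWAT replicate 1 or NWAT replicate 1, 3 without SWAT replicate 2). Those lower in EWAT than in NWAT ran from 3 to 6, with 3 without NWAT replicate 1 and 4 without EWAT replicate 2. The shares of all genes called were not counted under these alternatives, and the cause was not tested. A fit of 1 pair alone does not exist for the joint test.

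Same-numbered libraries deviated together by correlations of 0.00055, 0.0375 and 0.110 (SWAT with EWAT, SWAT with NWAT, EWAT with NWAT). With so few libraries these values cannot show whether same-numbered libraries shared an animal or pool, which no source states. With a replicate block the joint test called 23 members, with 5 higher and 13 lower in SWAT than in EWAT, 5 and 5 against NWAT, and 15 and 6 for EWAT versus NWAT, and all 49 called differences kept their direction and side of the threshold.

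On CPM in place of FPKM, which is not divided by length, the share of groups 1 to 4 was 35.98% in EWAT and 26.4% in NWAT, that of groups 5 to 8 was 45.6% in SWAT, 59.2% in EWAT and 52.1% in NWAT, and that of groups 9 to 13 was 30.01%, 4.82% and 21.5%. The 7 members that missed the count filter were tested only in the settings without a filter, where the joint test called 24 of 34 members. Leaving out the 4 members that passed the filter through 1 depot alone, an alternative chosen after seeing the data, kept every count within 1.5 times the reported one.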
